A study of Mus musculus with 12 samples.

Results

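The genes described here encode some of the apolipoproteins of the mouse liver together with 2 proteins that act on the particles they form, the triglyceride transfer protein Mttp and the plasma enzyme Lcat. They were taken by name from a deposited expression table: Apoa1, Apoa2, Apoa4, Apoa5, Apob, Apoc1, Apoc3, Apom, Mttp and Lcat, 10 of its 24340 rows. Apoe was not among them, because the table lists it at 0 in all 3 libraries of 1 group and at 29426.7 to 52464.9 FPKM in the others. All 10 genes passed the filter on low values (1 FPKM or more in 3 or more of the 12 libraries), which left 10044 tested genes.

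Lipoproteins carry lipid through the blood, and hepatocytes make most of them. Very low-density lipoprotein (VLDL) is built around 1 molecule of Apob, which Mttp loads with triglyceride in the endoplasmic reticulum. High-density lipoprotein (HDL) forms when Apoa1 takes up cholesterol and phospholipid from cells, after which Lcat esterifies the cholesterol and the particle fills out. Smaller exchangeable apolipoproteins move between particles and tune lipases and receptors.

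Livers came from C57BL/6 mice bought from Taconic, and their poly(A)-selected RNA was sequenced. The mice drank water with PPA (3-phenylpropionic acid, a product of bacteria in the gut) for 4 weeks, or plain water (CTL), and both were fasted for 16 h. Livers were taken 6 h or 0 h after 300 mg/kg acetaminophen (APAP), an analgesic that injures hepatocytes at high dose, given into the peritoneum. The groups of 3 libraries were PPA_6h (PPA water, 6 h after APAP), CTL_6h (plain water, 6 h after APAP), PPA_0h (PPA water, 0 h) and CTL_0h (plain water, 0 h). The fast was common to all 4 groups, and no group was kept for 6 h without APAP, so APAP, the longer fast and the time of day cannot be told apart. The labels do not say whether the 0 h mice had been injected, what sex they were, or that each library is a separate mouse. The p-values therefore measure the spread between these libraries.

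The authors deposited expression as FPKM, a fragment count divided by transcript length and by library size. Depth, estimated from the steps between low values, was 6990000 to 10070000 fragments in the 6 h libraries and 3250000 to 4980000 in the 0 h libraries, so depth and time cannot be told apart. At this depth an estimated 838 to 2350 fragments per library stood behind Mttp, the least covered of the 10 genes, and 49095 to 150690 behind Apoa2. Of 8 hepatocyte markers, Alb was left out because it is listed at 0 in whole groups. Of the other 7, 0 were under 1 FPKM in every library. Intestine also expresses Apoa1, Apoa4, Apob and Mttp. Of 6 enterocyte markers, 5 were under 1 FPKM in every library, with Sis and Alpi at 0, while Fabp2, which made up nearly all of their sum, was 30.4 to 114.5 FPKM in PPA_6h, 68.1 to 122.3 in CTL_6h, 67.6 to 92.7 in PPA_0h and 114.4 to 146.5 in CTL_0h. Summed neutrophil markers were 16.98 to 24.1 FPKM in PPA_6h and 11.3 to 53.6 in CTL_6h, against 0.264 to 2.88 in PPA_0h and 0.654 to 2.95 in CTL_0h. The library CTL_6h_4 held 161.0 FPKM of 15 skeletal muscle markers, against at most 6.23 in any other library. In bulk tissue, fewer hepatocytes and less RNA per hepatocyte cannot be told apart.

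Promoter windows are shown for 5 of the genes, among them Apom and Lcat, the 2 genes called in the comparisons below. The windows run from 250 bases before to 50 bases from the start, are taken from RefSeq on build GRCm38.p6 and are written 5′ to 3′ on the gene's strand. Capitals mark matches to any of 8 letter patterns, searched on both strands. The TATA-box pattern TATAAA is found in 13.6% of 32851 RefSeq windows of the same length. The HNF4-like pattern CAAAGNNCA is found in 6.36% of them, the related CAAAGGNCC, which can share bases with it, in 1.33%, and GTTANTNAT, an HNF1-like pattern, in 2.37%. The patterns for AP-1 (spelled TGANTCA) are in 7.81%, for the cyclic AMP response element (spelled TGACGTCA) in 1.79%, for C/EBP factors (spelled TTGCGCAA) in 0.183% and for the E-box (spelled CACGTG) in 7.15%. The HNF4-like and HNF1-like patterns were chosen after these letters had been read, and a match is a description of letters only. RefSeq windows were at hand for 8 of the 10 genes, and that of Mttp is not shown because it lies at the start of Trmt10a. Those of Apoa1, with none of the 8 patterns, and of Apoa2, with the TATA-box pattern at position 39 of its first window, are not shown either.
Apom, chr17:35131752-35132051, minus strand: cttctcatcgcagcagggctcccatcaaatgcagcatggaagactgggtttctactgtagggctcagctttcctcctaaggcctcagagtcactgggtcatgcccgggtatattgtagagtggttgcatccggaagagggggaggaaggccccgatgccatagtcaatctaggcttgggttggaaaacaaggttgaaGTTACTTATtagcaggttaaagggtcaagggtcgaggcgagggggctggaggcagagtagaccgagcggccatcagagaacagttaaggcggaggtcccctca
Lcat, chr8:105943353-105943652, minus strand: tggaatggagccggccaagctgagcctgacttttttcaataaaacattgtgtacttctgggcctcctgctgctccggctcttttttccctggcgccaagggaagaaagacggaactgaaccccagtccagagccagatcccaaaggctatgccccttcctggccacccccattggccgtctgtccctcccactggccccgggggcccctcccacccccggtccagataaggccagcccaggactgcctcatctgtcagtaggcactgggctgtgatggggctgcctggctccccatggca
Apoa4, chr9:46240594-46240893, plus strand: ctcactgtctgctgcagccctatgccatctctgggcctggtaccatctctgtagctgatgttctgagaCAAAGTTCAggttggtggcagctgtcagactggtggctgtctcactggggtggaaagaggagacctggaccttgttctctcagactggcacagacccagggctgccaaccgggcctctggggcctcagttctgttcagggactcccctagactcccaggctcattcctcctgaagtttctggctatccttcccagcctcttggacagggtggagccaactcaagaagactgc
Apoa5, chr9:46268358-46268657, plus strand: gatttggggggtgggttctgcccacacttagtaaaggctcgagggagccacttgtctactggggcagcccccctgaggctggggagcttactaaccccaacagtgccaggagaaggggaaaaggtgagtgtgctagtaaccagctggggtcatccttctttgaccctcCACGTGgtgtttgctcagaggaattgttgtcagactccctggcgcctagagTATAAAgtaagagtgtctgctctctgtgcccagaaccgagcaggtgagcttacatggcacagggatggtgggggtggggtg
Apob, chr12:7977427-7977726, plus strand: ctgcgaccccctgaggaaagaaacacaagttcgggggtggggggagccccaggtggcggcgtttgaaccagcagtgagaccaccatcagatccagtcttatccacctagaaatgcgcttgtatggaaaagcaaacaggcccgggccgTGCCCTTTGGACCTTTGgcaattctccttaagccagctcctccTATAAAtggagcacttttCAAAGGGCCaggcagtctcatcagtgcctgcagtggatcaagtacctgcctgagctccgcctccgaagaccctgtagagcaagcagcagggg
The Apom window holds the HNF1-like pattern at position 198. Nearly all of that window lies inside the Apom locus as GENCODE gives it, chr17:35128997-35132050, whose start is upstream of the RefSeq start. The match therefore lies within the annotated gene. The Lcat window holds none of the 8. Apob holds the TATA-box pattern at position 191, the CAAAGGNCC pattern at positions 156 and 209, and the other HNF4-like pattern at position 148, where it overlaps the first of these. Apoa4 holds that pattern at position 69, and Apoa5 holds an E-box at position 169 and the TATA-box pattern at position 220. A second RefSeq window of Apoa5, chr9:46268383-46268682, holds the same matches at positions 144 and 195.

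Levels per length of transcript spanned a wide range. Averaged over the 12 libraries, Apoa2 (28685 FPKM), Apoa1 (22165 FPKM) and Apoc1 (15489 FPKM) were the 3 most abundant of all tested genes. Apoc3 followed at 7366 FPKM, then Apoa4 at 1558, Apoa5 at 1237, Lcat at 454.7, Apom at 410.2, Apob at 180.8 and Mttp at 54.6 FPKM. The tested genes leave out Alb and Apoe. Apoe averaged 31648 FPKM in PPA_6h, 44681 in PPA_0h and 47696 in CTL_0h, above Apoa2 in each of these groups. The ranges over the libraries overlapped among Apoa2, Apoa1 and Apoc1, between Apoa4 and each of Apoa5, Lcat and Apom, and between Lcat and Apom. Apoc3 lay apart from its neighbours in the order, at 5585 to 10654 FPKM in every library, as did Apob at 132.0 to 219.3 and Mttp at 35.4 to 65.1. Together the 10 genes made up 9.8 to 10.9% of the FPKM of all tested genes in PPA_6h, 10.7 to 13.8% in CTL_6h, 11.9 to 12.7% in PPA_0h and 12.7 to 15.7% in CTL_0h. PPA_6h_2 was the lowest of the 12 libraries for 7 of the 10 genes.

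**Figure D1:**
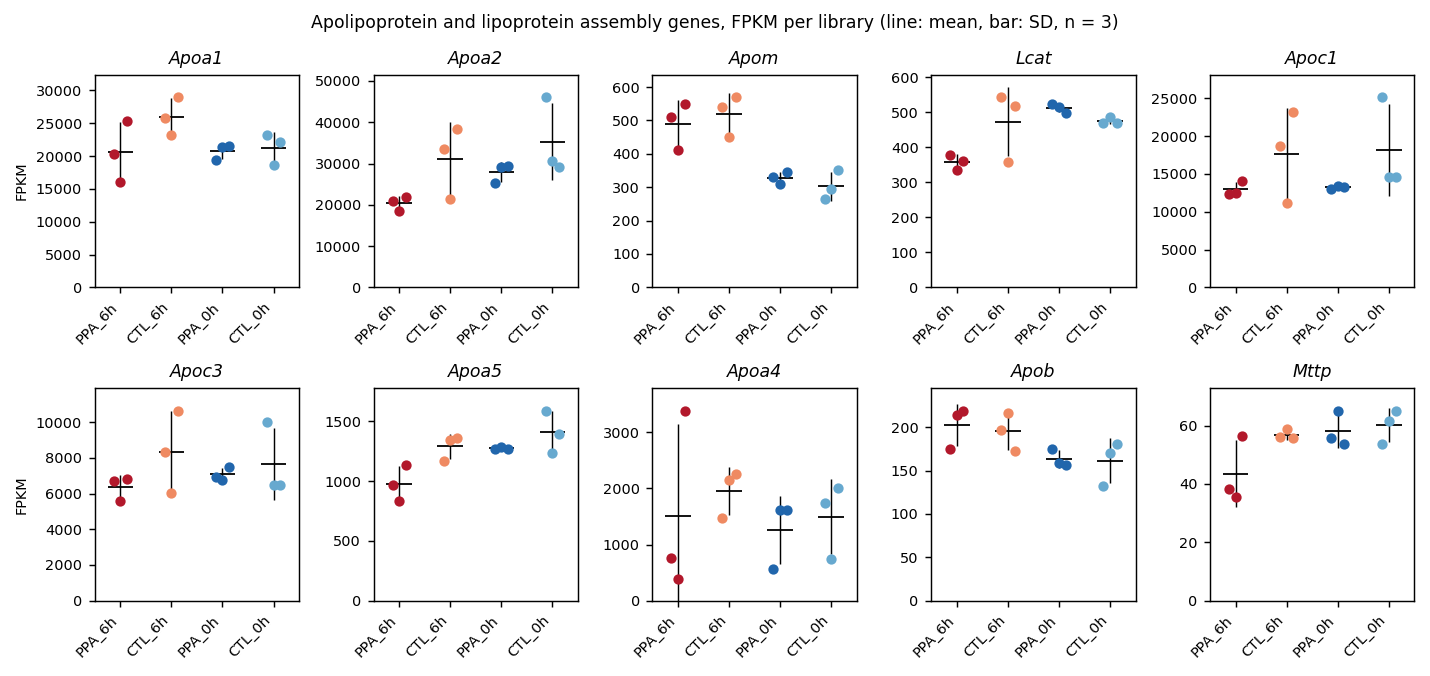
FPKM of the 10 genes (vertical axes, each from 0) in each library, with the groups PPA_6h, CTL_6h, PPA_0h and CTL_0h along the horizontal axes; points are libraries, lines are group means and bars are SD over 3 libraries. All 6 libraries at 6 h lie above all 6 at 0 h for Apom, and the 3 PPA_6h libraries lie between 335.1 and 378.1 FPKM for Lcat; the SD bar of Apoa4 in PPA_6h runs below 0 and is cut at the axis.

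Apom was higher at 6 h than at 0 h in both water groups, and Lcat was lower at 6 h in PPA mice. These 2 genes were the only ones of the 10 called in any of the 5 comparisons (adjusted p under 0.05 over all tested genes). In PPA mice 2 of 10 were called, Apom higher and Lcat lower, beside 28.2% of all tested genes. In CTL mice 1 of 10 was called, Apom, beside 26.9% of all tested genes. At an unadjusted p under 0.05 there were 4 of 10 in PPA mice, beside 40.1%, and 1 of 10 in CTL mice, beside 39.1%.

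Apom (ENSMUSG00000024391, chr17:35128997-35132050, minus strand, 6 exons in its longest transcript) encodes a lipocalin that rides mainly on HDL and binds sphingosine-1-phosphate. Its level was 509.5, 411.9 and 547.7 FPKM in PPA_6h and 539.4, 450.1 and 569.1 FPKM in CTL_6h. At 0 h it was 329.8, 309.1 and 346.1 FPKM in PPA mice and 264.6, 294.6 and 350.5 FPKM in CTL mice. Every library at 6 h stood above every library at 0 h. In PPA mice Apom averaged 489.7 ± 70.0 FPKM at 6 h and 328.3 ± 18.6 FPKM at 0 h (SD, n = 3 each), a log2 change of 0.57 ± 0.15 (SE) with an adjusted p of 0.0126 by limma. In CTL mice it averaged 519.5 ± 62.0 FPKM at 6 h and 303.2 ± 43.6 FPKM at 0 h, a log2 change of 0.78 ± 0.15 with an adjusted p of 0.00221. The increases were not shown to differ, with an interaction of −0.21 ± 0.21 on the log2 scale (adjusted p = 0.782). PPA against CTL mice differed by −0.09 ± 0.15 at 6 h (adjusted p = 0.808) and 0.12 ± 0.15 at 0 h (adjusted p = 0.876). Over 26 alternative analyses Apom remained called in 26 for CTL mice (adjusted p 0.000372 to 0.0289) and in 25 for PPA mice (0.00169 to 0.0506), the exception being the fit without PPA_0h_4, where the change was 0.52.

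Lcat (ENSMUSG00000035237, chr8:105939551-105943382, minus strand, 6 exons) encodes lecithin-cholesterol acyltransferase, which esterifies cholesterol on HDL with Apoa1 as its cofactor. Its level was 378.1, 335.1 and 360.8 FPKM in PPA_6h and 542.6, 359.2 and 517.0 FPKM in CTL_6h. At 0 h it was 524.6, 515.5 and 499.2 FPKM in PPA mice and 469.0, 485.6 and 469.9 FPKM in CTL mice. PPA_6h and PPA_0h did not overlap, whereas CTL_6h spanned the CTL_0h values, with CTL_6h_3 below them and the other 2 libraries above. Lcat averaged 358.0 ± 21.6 FPKM in PPA_6h and 513.1 ± 12.8 FPKM in PPA_0h (SD, n = 3 each), a log2 change of −0.52 ± 0.14 (SE) with an adjusted p of 0.0174. The averages in CTL mice were 472.9 ± 99.3 FPKM at 6 h and 474.9 ± 9.33 FPKM at 0 h, a change of −0.03 ± 0.14 (adjusted p = 0.905).

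The difference between those 2 Lcat responses was −0.49 ± 0.20 on the log2 scale and was not called (adjusted p = 0.515), so a response of Lcat particular to PPA mice was not shown. PPA_6h against CTL_6h gave −0.38 ± 0.14 (adjusted p = 0.259). Without CTL_6h_3, the CTL_6h library with the least Lcat, that difference was −0.57 ± 0.10 and was called (adjusted p = 0.0119). That omission gave 818 calls over all tested genes, in place of 14. Over all 12 omissions the Lcat difference ranged from −0.57 to −0.27. The fall in PPA mice was not called without PPA_0h_2 (adjusted p = 0.0557), without PPA_0h_4 (0.0518) or without PPA_6h_2 (0.0555). It was called in 22 of 26 alternatives, with adjusted p of 0.00134 to 0.0557. An antisense gene, Gm16156, spans the whole of Lcat on the other strand, and since no source used here states strand, reads of the pair cannot be told apart.

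Apoa1 (chr9:46228580-46230466, 4 exons) is the structural protein of HDL and the activator of Lcat. It was present at 20303, 16080.4 and 25304 FPKM in PPA_6h, 25864, 23199 and 28954 FPKM in CTL_6h, 19423, 21421 and 21553 FPKM in PPA_0h, and 23153, 18633 and 22092 FPKM in CTL_0h. CTL_6h lay just above CTL_0h with no overlap, while PPA_6h straddled PPA_0h. The log2 change at 6 h was −0.04 ± 0.20 in PPA mice (adjusted p = 0.906) and 0.29 ± 0.20 in CTL mice (adjusted p = 0.308), neither called. PPA_6h against CTL_6h gave −0.36 ± 0.20 (adjusted p = 0.422).

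Apoa2 (chr1:171225054-171226379, 4 exons), the second protein of HDL, had the highest FPKM of the 10 when averaged over the 12 libraries. In PPA_6h Apoa1 averaged slightly more, 20563 FPKM against 20415 for Apoa2. The level of Apoa2 was 20866, 18499 and 21881 FPKM in PPA_6h, 33553, 21307 and 38467 FPKM in CTL_6h, 25274, 29224 and 29329.7 FPKM in PPA_0h, and 46036, 30618 and 29162 FPKM in CTL_0h. PPA_6h lay wholly below PPA_0h, whereas the CTL groups overlapped. At 6 h against 0 h the log2 change was −0.45 ± 0.25 in PPA mice (adjusted p = 0.195) and −0.19 ± 0.25 in CTL mice (adjusted p = 0.602). PPA_6h against CTL_6h gave −0.57 ± 0.25 (adjusted p = 0.311). Without CTL_6h_3, the CTL_6h library with the least Apoa2, it gave −0.82 ± 0.21 with an adjusted p of 0.0373. That omission gave 818 calls over all tested genes, in place of 14. Without CTL_6h_4, the CTL_6h library with the most, the Apoa2 difference was −0.39 (adjusted p = 0.705). The ratio of Apoa1 to Apoa2 was 0.97, 0.87 and 1.16 in PPA_6h and 0.77, 1.09 and 0.75 in CTL_6h, against 0.77, 0.73 and 0.73 in PPA_0h and 0.50, 0.61 and 0.76 in CTL_0h.

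Apoc1 (chr7:19689481-19692660, 3 exons), which activates Lcat and inhibits lipoprotein lipase and the uptake of remnants, varied more within the CTL groups than within the PPA groups. Its coefficient of variation was 7.18% in PPA_6h and 34.6% in CTL_6h, against 1.55% in PPA_0h and 33.4% in CTL_0h. It was 12399, 12422 and 14021 FPKM in PPA_6h, 18663, 11106 and 23209 FPKM in CTL_6h, 13009, 13418 and 13209.5 FPKM in PPA_0h, and 25134, 14655 and 14619 FPKM in CTL_0h. All PPA_0h libraries lay below all CTL_0h libraries, yet the difference of −0.41 ± 0.27 on the log2 scale was not called (adjusted p = 0.769). Without CTL_0h_1, the highest library, it was −0.15, and without either of the other 2 CTL_0h libraries −0.54. The log2 change at 6 h was −0.03 ± 0.27 in PPA mice and −0.05 ± 0.27 in CTL mice (adjusted p = 0.946 and 0.906).

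Apoc3 (chr9:46232933-46235636, 4 exons), an inhibitor of lipoprotein lipase and of remnant clearance, followed a like order of libraries. It was 6686, 5585 and 6834 FPKM in PPA_6h, 8351, 6059.6 and 10654 FPKM in CTL_6h, 6927, 6789.7 and 7508 FPKM in PPA_0h, and 10019.5, 6487 and 6492 FPKM in CTL_0h. All 4 groups overlapped. At 6 h against 0 h the log2 change was −0.16 ± 0.23 in PPA mice (adjusted p = 0.642) and 0.12 ± 0.23 in CTL mice (adjusted p = 0.738).

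Apoa2, Apoc1 and Apoc3 have the shortest transcripts of the 10, at 518, 532 and 709 bases. Their highest values stood in CTL_0h_1, CTL_6h_4 and CTL_6h_2, the same libraries in which short transcripts stood high in general. Over 223 tested genes with transcripts under 700 bases, the median deviation from the gene's mean over all libraries was 0.39 on the log2 scale in CTL_0h_1, 0.34 in CTL_6h_4 and 0.17 in CTL_6h_2, against −0.27 to 0.07 in the other 9 libraries. Apoa2 deviated by 0.73 in CTL_0h_1, by 0.47 in CTL_6h_4 and by 0.27 in CTL_6h_2. Apoc1 deviated by 0.75, 0.63 and 0.32 in the same libraries, and Apoc3 by 0.47, 0.56 and 0.21. With each library's trend with transcript length removed, an alternative chosen after seeing the data, the change of Apoa2 at 6 h in PPA mice was −0.51 ± 0.11 and was called (adjusted p = 0.00413). Its other values for these 3 genes were not called. For PPA against CTL at 0 h it gave −0.10 in place of −0.31 for Apoa2, −0.21 in place of −0.41 for Apoc1 and 0.07 in place of −0.09 for Apoc3. At 6 h it gave −0.44 in place of −0.57 for Apoa2, −0.26 in place of −0.39 for Apoc1 and −0.25 in place of −0.36 for Apoc3.

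**Figure D2:**
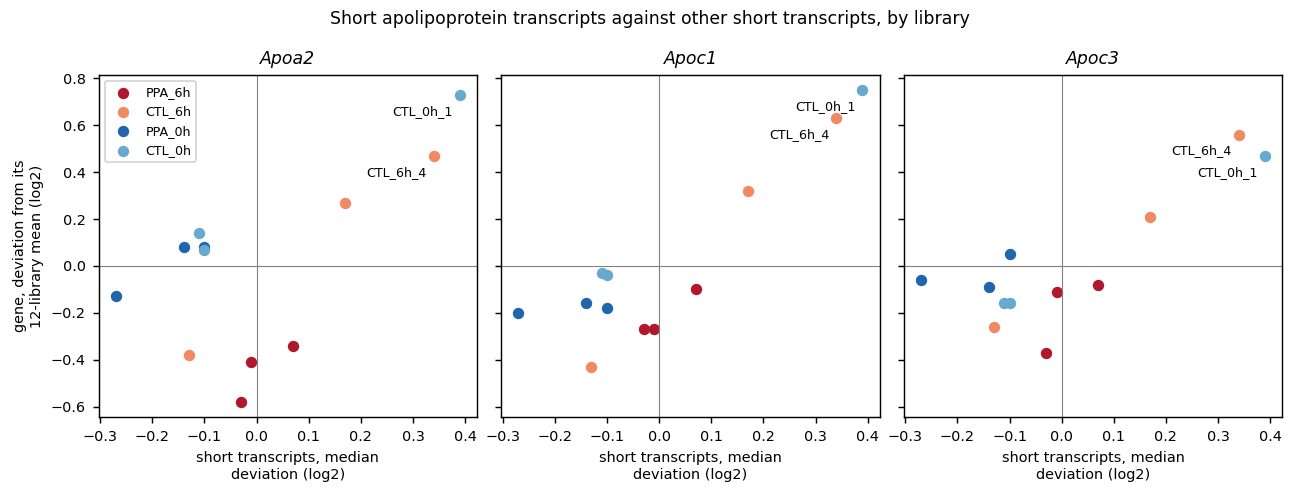
Deviation of Apoa2, Apoc1 and Apoc3 from their mean over 12 libraries (vertical axis, log2 of FPKM + 1) against the median deviation of 223 genes with transcripts under 700 bases (horizontal axis, log2), 1 point per library, coloured by group. CTL_0h_1, CTL_6h_4 and CTL_6h_2 lie to the right, at 0.39, 0.34 and 0.17, and hold the highest values of Apoa2, Apoc1 and Apoc3.

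Apoa5 (chr9:46268633-46271919, 4 exons) encodes a low-abundance plasma protein that promotes the lipolysis of triglyceride-rich particles. Its level was 963.4, 833.8 and 1136 FPKM in PPA_6h and 1169, 1345 and 1359 FPKM in CTL_6h. At 0 h it was 1269, 1282 and 1271 FPKM in PPA mice and 1589, 1237 and 1394 FPKM in CTL mice. PPA_6h lay below every library of the other 3 groups, and PPA_0h was tight, with an SD of 6.89 FPKM. The log2 change at 6 h was −0.39 ± 0.14 in PPA mice, which narrowly missed the threshold (adjusted p = 0.0577), and −0.12 ± 0.14 in CTL mice (adjusted p = 0.573). PPA_6h against CTL_6h gave −0.41 ± 0.14 (adjusted p = 0.229), and the difference of the 2 responses −0.27 ± 0.20 (adjusted p = 0.695). In PPA mice Apoa5 was called in 9 of 26 alternatives, among them the fits without CTL_0h_1 (adjusted p = 0.0447) and without CTL_6h_3 (0.0453). Neither library is in the 2 groups compared, and the change stayed at −0.39 in both fits. It was also called without PPA_6h_5 (0.0283), and was −0.28 without PPA_6h_2 (adjusted p = 0.198, the highest of the 26, the lowest being 0.00732). The antisense gene Gm47544 covers 1331 bases of the locus.

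Apoa4 (chr9:46240696-46243459, 3 exons), an exchangeable apolipoprotein of HDL and of triglyceride-rich particles that fasting and fat intake are known to move, varied most from library to library. It was 761.7, 385.8 and 3388 FPKM in PPA_6h, 1467, 2148 and 2265 FPKM in CTL_6h, 566.0, 1607 and 1622 FPKM in PPA_0h, and 1739.9, 735.5 and 2004 FPKM in CTL_0h. The highest and the lowest of the 12 values both belonged to PPA_6h, and all groups overlapped. At 6 h against 0 h the log2 change was −0.19 ± 0.66 in PPA mice (adjusted p = 0.858), although the mean was higher at 6 h, and 0.49 ± 0.66 in CTL mice (adjusted p = 0.618). PPA_6h against CTL_6h gave −0.95 ± 0.66 (adjusted p = 0.51), with −1.83 without PPA_6h_5 and −0.26 without PPA_6h_2. Set against Apoa1, Apoa4 stood at 3.8, 2.4 and 13.4% in PPA_6h, 5.7, 9.3 and 7.8% in CTL_6h, 2.9, 7.5 and 7.5% in PPA_0h, and 7.5, 3.9 and 9.1% in CTL_0h. The opposite-strand genes Gm47528 and Gm10680 overlap the locus.

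Apob (chr12:7977648-8016835, 29 exons), the backbone of VLDL, was 174.9, 214.0 and 219.3 FPKM in PPA_6h, 197.3, 216.8 and 172.8 FPKM in CTL_6h, 175.3, 159.3 and 156.2 FPKM in PPA_0h, and 132.0, 170.7 and 181.1 FPKM in CTL_0h. The groups overlapped in each comparison, PPA_6h and PPA_0h by less than 1 FPKM. The log2 change at 6 h was 0.30 ± 0.14 in PPA mice (adjusted p = 0.136) and 0.28 ± 0.14 in CTL mice (adjusted p = 0.164). PPA_6h against CTL_6h gave 0.05 ± 0.14 (adjusted p = 0.899).

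Mttp (chr3:138089854-138144968, 18 exons), which transfers triglyceride onto Apob, was 38.2, 35.4 and 56.5 FPKM in PPA_6h and 56.1, 58.9 and 55.7 FPKM in CTL_6h. At 0 h it was 55.9, 64.8 and 53.6 FPKM in PPA mice and 53.6, 61.5 and 65.1 FPKM in CTL mice. PPA_6h_1 and PPA_6h_2 lay below all other libraries, while PPA_6h_5 lay among them. At 6 h against 0 h the log2 change was −0.44 ± 0.16 in PPA mice, which narrowly missed the threshold (adjusted p = 0.0543), and −0.07 ± 0.16 in CTL mice (adjusted p = 0.773). Without PPA_6h_5 it was −0.64 ± 0.13 in PPA mice and was called (adjusted p = 0.00389), as was PPA_6h against CTL_6h at −0.62 ± 0.13 (adjusted p = 0.021). For PPA_6h against CTL_6h that omission gave 384 calls over all tested genes, in place of 14. Without PPA_6h_2 the 2 values of Mttp were −0.31 (adjusted p = 0.187) and −0.29 (adjusted p = 0.629). The change in PPA mice was called in 5 of 26 alternatives. With all libraries PPA_6h against CTL_6h gave −0.41 ± 0.16 (adjusted p = 0.259), and the difference of the 2 responses −0.37 ± 0.22 (adjusted p = 0.632). Gm43691 and the start of Trmt10a lie within Mttp on the other strand.

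**Figure D3:**
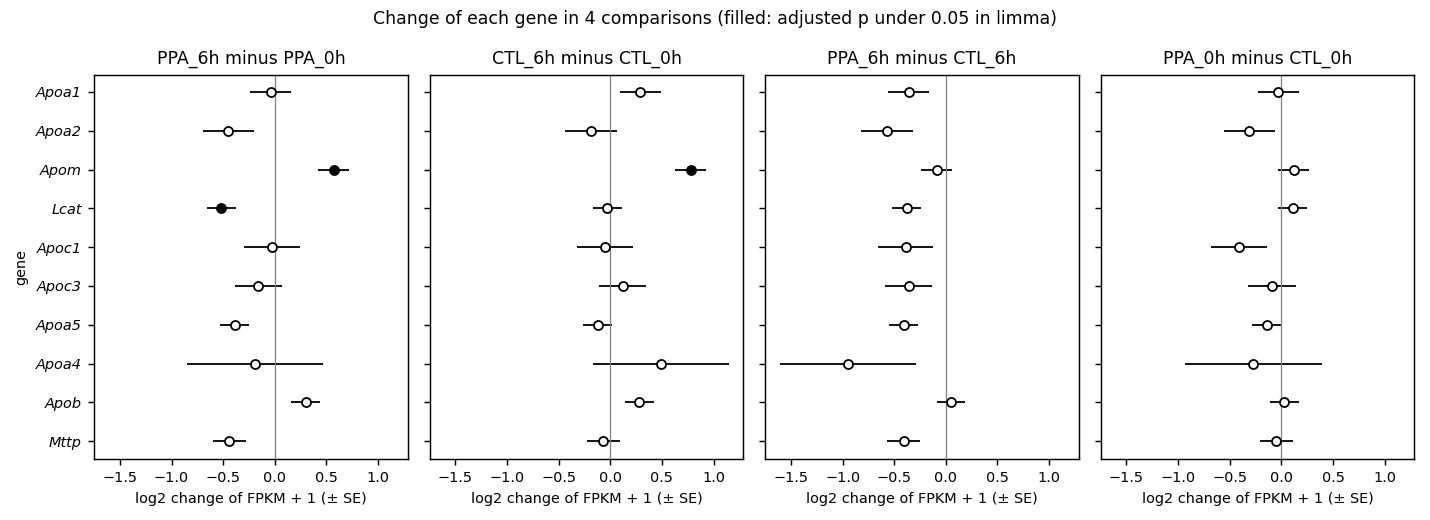
Log2 change of FPKM + 1 for each of the 10 genes (points, with bars of 1 SE from limma) in 4 panels, for 6 h against 0 h in PPA mice and in CTL mice and for PPA against CTL mice at 6 h and at 0 h. Filled points are called: Apom at 0.57 and Lcat at −0.52 in PPA mice, and Apom at 0.78 in CTL mice.

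PPA against CTL mice gave no call among the 10 genes at either time. At 0 h, 0 of 10 were called by limma, beside 0.0299% of all tested genes, and 0 of 10 had an unadjusted p under 0.05, beside 6.80%. Groups did not overlap for 2 of the 10, Lcat higher in PPA mice (beside 6.57% of all genes in that direction) and Apoc1 lower (beside 7.95%). At 6 h, 0 of 10 were called, beside 0.139%, while Apoa2, Apoa5, Mttp and Lcat, 4 of 10, had an unadjusted p under 0.05, beside 14.9%. The log2 difference at 6 h was negative for 9 of the 10, Apob being the exception, and with libraries scaled to an equal sum Apom turned to 0.08. The median was −0.38 over the 10 genes and −0.02 over all tested genes. The signs of the 10 are not independent. Over the 12 libraries Pearson r between pairs of them ran from −0.74 (Apoa2 and Apob) to 0.92 (Apoc1 and Apoc3). Only Apoa5 had groups that did not overlap at 6 h, lower in PPA_6h, beside 8.61% of all genes, and 0 of 10 were higher without overlap, beside 6.58%. The difference between the 6 h against 0 h changes of PPA and CTL mice was called for 0 of 10, beside 0.00996%. For 1 of 10, Lcat, it had an unadjusted p under 0.05, beside 9.26%. Its median was −0.27 over the 10 genes and −0.02 over all.

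At 6 h against 0 h in PPA mice the log2 change was negative for 8 of 10, with a median of −0.17 against 0.00 over all tested genes. Groups did not overlap there for 1 gene that was higher, Apom, beside 24.5% of all genes, and for 3 that were lower, Apoa2, Apoa5 and Lcat, beside 23.1%. In CTL mice the changes lay between −0.19 and 0.78, with a median of 0.04 against −0.01 over all tested genes. Groups did not overlap for Apoa1 and Apom, both higher, beside 21.1% of all genes, and for 0 of 10 that were lower, beside 18.6%. With libraries scaled to an equal sum, 5 in place of 2 of the 10 were called in PPA mice, the additions being Apoa2 (−0.53, adjusted p = 0.0211), Apoa5 (−0.47, 0.00732) and Mttp (−0.51, 0.0356). Under the same scaling 2587 of the 10044 tested genes were called. Leaving out 1 library at a time gave 0 to 4 of the 10, beside 2007 to 3201 genes in all.

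Other genes, of lipoprotein metabolism and of abundant plasma proteins, were taken from 8 lists, 132 tested genes in all beside the 10. In PPA mice 22 of the 132 rose and 20 fell at 6 h, beside 15.0% and 13.3% of all tested genes. In CTL mice 29 rose and 15 fell, beside 15.2% and 11.8%. The list of plasma proteins, 25 tested genes, gave 8 of the rises in PPA mice, 9 of those in CTL mice and 0 of the falls. None of the 132 was called for PPA against CTL mice or for the difference of the responses. At an unadjusted p under 0.05 there were 31 at 6 h, beside 14.9% of all tested genes, 11 at 0 h, beside 6.80%, and 15 for the difference, beside 9.26%.

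Of 17 other tested apolipoproteins and proteins carried with them, 1 rose and 4 fell in each water group. Beside these stand 15.0% and 13.3% of all tested genes in PPA mice and 15.2% and 11.8% in CTL mice. The median log2 change was −0.18 in PPA mice and −0.14 in CTL mice. Pon1, the HDL-bound paraoxonase, averaged 204.6 ± 33.2 FPKM in PPA_6h and 363.0 ± 14.2 FPKM in PPA_0h (SD, n = 3 each), a log2 change of −0.84 ± 0.17 (adjusted p = 0.0033). In CTL mice it averaged 267.1 ± 52.2 FPKM at 6 h and 427.8 ± 69.3 FPKM at 0 h, a change of −0.68 ± 0.17 (adjusted p = 0.0106). Apon fell in both water groups, with log2 changes of −0.79 in PPA mice and −0.58 in CTL mice (adjusted p = 0.00119 and 0.00803). Clu, also known as apolipoprotein J, rose in CTL mice by 0.55 (adjusted p = 0.0051), while the change in PPA mice was 0.27 (adjusted p = 0.101). Apol9b fell in both water groups, with log2 changes of −0.96 in PPA mice and −0.72 in CTL mice, but it is nearly identical to Apol9a and its reads may be split between the 2.

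Of 24 tested genes of VLDL assembly and secretion, 3 rose and 3 fell in PPA mice, beside 15.0% and 13.3% of all tested genes. In CTL mice 3 rose and 1 fell, beside 15.2% and 11.8%. Kdelr2, a receptor that returns proteins to the endoplasmic reticulum, averaged 146.1 ± 30.0 FPKM in PPA_6h and 35.6 ± 0.994 FPKM in PPA_0h, and 143.9 ± 9.72 FPKM in CTL_6h and 38.1 ± 5.72 FPKM in CTL_0h. Its log2 change was 1.99 in PPA mice and 1.90 in CTL mice (adjusted p = 2.18e-06 and 3.2e-06). Cideb, a lipid droplet protein needed to load VLDL with lipid, fell by 0.83 in PPA mice (adjusted p = 0.000692), and its change in CTL mice was −0.35 (adjusted p = 0.0625). Soat2, which makes the cholesterol esters packed into VLDL, rose by 0.48 in PPA mice (adjusted p = 0.0302), with a change of 0.37 in CTL mice (adjusted p = 0.0834). Sec24a, a coat protein of secretory vesicles, rose by 0.64 in CTL mice (adjusted p = 0.00664), with a change of 0.21 in PPA mice (adjusted p = 0.292). The carboxylesterase Ces3a fell by 0.43 in PPA mice (adjusted p = 0.0452), with a change of −0.25 in CTL mice (adjusted p = 0.224) and the limit that it has close paralogs.

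The Apob editing genes moved in both directions. Apobec1, the cytidine deaminase that edits Apob mRNA, averaged 4.43 ± 0.195 FPKM in PPA_6h and 4.22 ± 0.947 FPKM in PPA_0h, a log2 change of 0.07 (adjusted p = 0.852). In CTL mice it averaged 7.38 ± 2.39 FPKM at 6 h and 3.04 ± 1.06 FPKM at 0 h, a rise of 1.05 (adjusted p = 0.00629). Syncrip, an RNA-binding protein of the editing complex, rose by 0.69 in PPA mice and 0.73 in CTL mice (adjusted p = 0.00642 and 0.00501). Rbm47, a cofactor of the deaminase, fell in both water groups, with log2 changes of −0.70 in PPA mice and −0.65 in CTL mice (adjusted p = 0.00649 and 0.00992).

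Among 13 tested receptors and uptake genes, 2 rose and 3 fell in PPA mice, beside 15.0% and 13.3% of all tested genes. In CTL mice 3 rose and 2 fell, beside 15.2% and 11.8%. Cd36 averaged 1.68 ± 0.384 FPKM in PPA_6h and 5.48 ± 0.356 FPKM in PPA_0h, and 3.58 ± 2.14 FPKM in CTL_6h and 11.8 ± 1.93 FPKM in CTL_0h (SD, n = 3 each). This fatty acid carrier fell in both water groups, with log2 changes of −1.28 in PPA mice and −1.59 in CTL mice (adjusted p = 0.00401 and 0.00108). Lrp1, a receptor for remnants, fell by 0.64 in PPA mice (adjusted p = 0.00121), with a change of −0.28 in CTL mice (adjusted p = 0.0763).

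Of 12 tested lipases and lipid transfer genes, 2 fell in PPA mice, beside 13.3% of all tested genes, and 1 rose in CTL mice, beside 15.2%. Lipg, endothelial lipase, fell by 0.93 in PPA mice (adjusted p = 0.0183), with a change of −0.23 in CTL mice (adjusted p = 0.544), at a low level, 0.655 ± 0.236 FPKM in PPA_6h and 2.30 ± 1.26 FPKM in PPA_0h. Gpihbp1, which anchors lipoprotein lipase on capillaries, rose by 0.69 in CTL mice (adjusted p = 0.0479), with a change of 0.21 in PPA mice (adjusted p = 0.535). Angptl4, a lipase inhibitor, was not called, with changes of −0.70 in PPA mice (adjusted p = 0.0653) and 0.45 in CTL mice (adjusted p = 0.236). Of 10 tested cholesterol efflux genes, 1 rose and 3 fell in PPA mice, beside 15.0% and 13.3% of all tested genes. In CTL mice 1 rose and 2 fell, beside 15.2% and 11.8%. Abca1, which lipidates Apoa1, rose by 0.80 in PPA mice and by 0.96 in CTL mice (adjusted p = 0.00666 and 0.00248). Abcb4, the phosphatidylcholine exporter of the bile canaliculus, fell in both water groups, with log2 changes of −1.20 in PPA mice and −0.53 in CTL mice (adjusted p = 0.000287 and 0.0326), and the sterol-sensing receptor Nr1h3 also fell, with changes of −0.48 and −0.45 (adjusted p = 0.0125 and 0.0191).

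Of 27 tested transcription factors of apolipoprotein genes, 6 rose and 4 fell in PPA mice, beside 15.0% and 13.3% of all tested genes. In CTL mice 9 rose and 5 fell, beside 15.2% and 11.8%. Foxo3, a forkhead factor of the insulin and stress pathways, averaged 33.2 ± 10.2 FPKM in PPA_6h and 5.30 ± 1.20 FPKM in PPA_0h, and 38.3 ± 3.68 FPKM in CTL_6h and 2.84 ± 1.14 FPKM in CTL_0h. Its log2 change was 2.41 in PPA mice and 3.40 in CTL mice (adjusted p = 2.88e-05 and 1.3e-06). Cebpb, a factor of the acute-phase response, rose by 1.04 in CTL mice (adjusted p = 0.0119), while its change in PPA mice was 0.00 (adjusted p = 0.999). Ppara, which drives fatty acid oxidation and represses Apoc3 in rodents, fell in both water groups, with log2 changes of −1.46 in PPA mice and −1.53 in CTL mice (adjusted p = 0.000111 and 7.46e-05).

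Other abundant plasma proteins of the liver were listed beside these genes. Of 25 tested, 8 rose in PPA mice, beside 15.0% of all tested genes, and 9 in CTL mice, beside 15.2%. In both water groups 0 fell, beside 13.3% and 11.8%. The median log2 change was 0.29 in PPA mice and 0.32 in CTL mice. Fgg, a fibrinogen chain, averaged 4478 ± 234.5 FPKM in PPA_6h and 1922 ± 123.3 FPKM in PPA_0h, and 3682 ± 659.6 FPKM in CTL_6h and 1882 ± 67.3 FPKM in CTL_0h. It rose by 1.22 in PPA mice and by 0.95 in CTL mice on the log2 scale (adjusted p = 8.54e-05 and 0.000495). The inhibitor chain Itih3 rose by 0.74 in PPA mice and by 1.02 in CTL mice (adjusted p = 0.00227 and 0.000267). The most abundant genes of the list, Rbp4 and Serpina3k, were not called. Rbp4 changed by −0.29 in PPA mice and 0.04 in CTL mice (adjusted p = 0.209 and 0.889), and Serpina3k by 0.36 and 0.38 (adjusted p = 0.126 and 0.11).

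**Figure D4:**
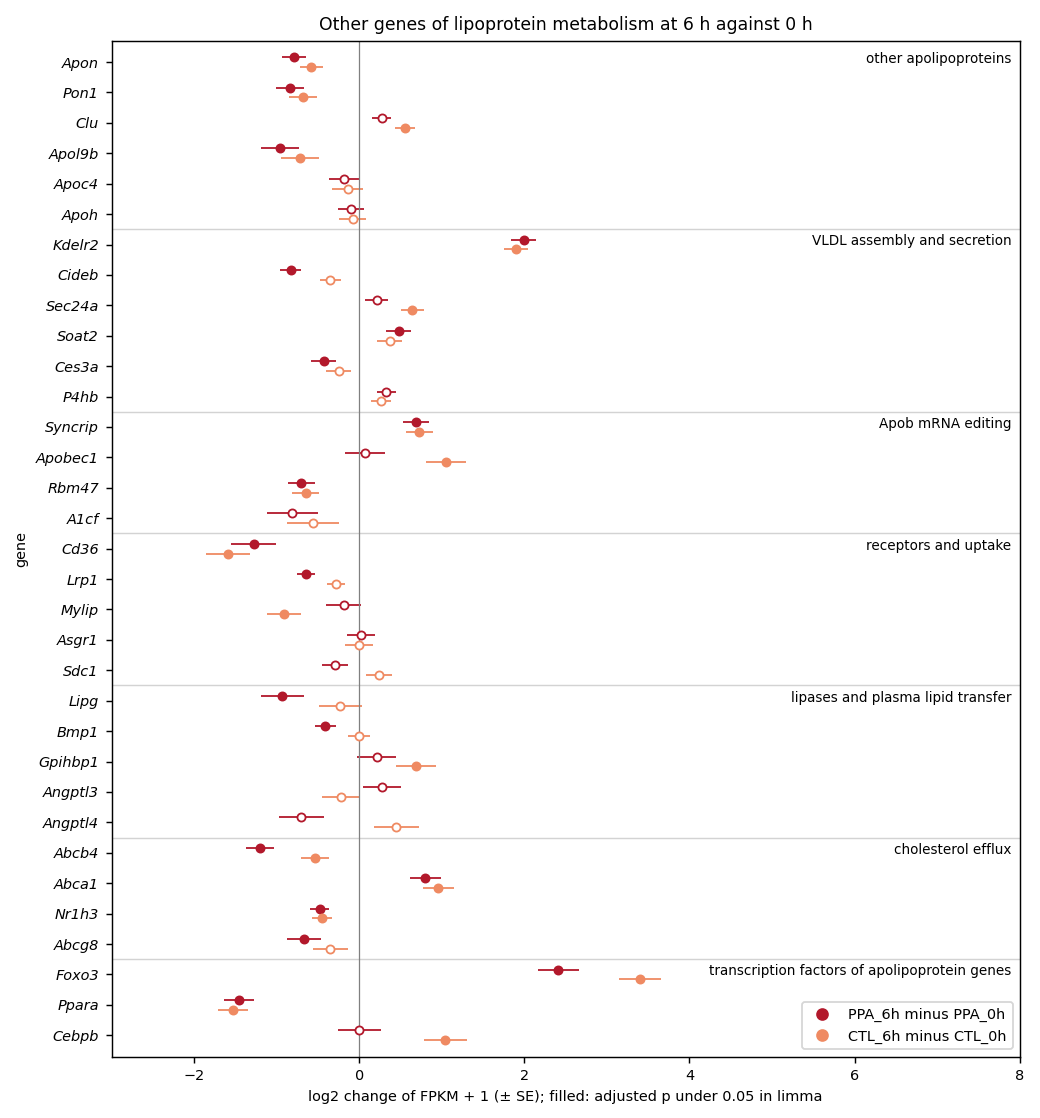
Log2 change of FPKM + 1 at 6 h against 0 h (horizontal axis, points with bars of 1 SE from limma) for named genes of 7 lists of lipoprotein metabolism (vertical axis), in PPA mice (dark red) and CTL mice (orange); filled points are called. Kdelr2 (1.99 in PPA mice, 1.90 in CTL mice) and Foxo3 (2.41 and 3.40) lie to the right, and Cd36 (−1.28 and −1.59) and Ppara (−1.46 and −1.53) to the left; not every named gene is drawn.

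Apoa1, Apoc3, Apoa4 and Apoa5 lie side by side on chromosome 9, and none of the 4 was called in any comparison. Of the 5 tested genes nearest to this cluster, 1 rose and 1 fell in PPA mice, beside 15.0% and 13.3% of all tested genes. In CTL mice 3 rose, beside 15.2%, and 0 fell, beside 11.8%. Of the 6 tested genes nearest to Apom, 0 were called by limma in PPA mice, beside 28.2%, and 0 in CTL mice, beside 26.9%. At an unadjusted p under 0.05 there were 0 and 2, beside 40.1% and 39.1%. Of the 3 tested genes nearest to Lcat, 1 fell in PPA mice, and 1 rose and 1 fell in CTL mice, beside the shares given for the cluster. Over the 12 libraries the genes whose log2 values followed Apom most closely were Clcf1 (Pearson r = 0.973), Ercc6 (0.973) and Spty2d1 (0.972). Those closest to Lcat were Slc27a5 (0.981), Abcc6 (0.959) and Tcn2 (0.959). The libraries share their groups, so these values describe likeness over 4 groups as much as over 12 libraries.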

How the data were processed

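The authors deposited FPKM values, computed from their reads, of 24340 gene rows in 12 mouse liver libraries. The submitters' processing notes name HISAT2 2.1.0, Cufflinks, SAMtools 0.1.18-r580, Cuffdiff 2.1.1 and the build mm10. Tool roles, settings and gene models were not given in the sources used here. Since FPKM divides by a library total, changes in very abundant genes move the rest.

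From these values, 1311 rows of short RNA genes were left out, as were Alb and Apoe, listed at 0 in whole groups, which was taken as a failed estimate. Genes with 1 FPKM or more in 3 or more libraries were tested on log2(FPKM + 1), a scale that understates changes of low genes. limma 3.58.1 in R 4.3.3 fitted 1 mean per group over all 12 libraries with a mean-variance trend, and p-values were adjusted by Benjamini-Hochberg over 10044 genes. Genes with an adjusted p under 0.05 were called. The 5 contrasts compared 6 h with 0 h in each water group, PPA with CTL at each time, and the PPA with the CTL response (the interaction). The fit was tested on simulated data.

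Named genes were all 10 members, of each list up to 4 called genes with the smallest adjusted p and the 2 most abundant, and the 3 genes most like each called member. Some genes that the rule gives are not reported here. The members and lists were chosen with earlier results of these data known. Transcript lengths and coordinates are from GENCODE vM21 on GRCm38 (mm10), using each gene's longest transcript. Depth was estimated from the steps between low FPKM values of genes with transcripts of 3000 bases or more. Alternatives covered the pseudocount, the filter, 3 scalings, the groups in the fit, moderation, sample weights, a replicate block, short RNA rows and leaving out each library. Removal of the length trend of each library, and leaving out CTL_0h_1 together with CTL_6h_4, were chosen after seeing the data. Replicate numbers in the titles were not taken to pair the libraries. Deviations from the group means correlated at −0.28 to 0.09 over same-numbered pairs. These values cannot exclude a pairing, since each group holds 3 libraries and pairs with unlike numbers were not compared. Python 3.11.15, pandas 2.3.3 and matplotlib 3.10.9 made the tables and figures.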

Additional observations from a re-analysis of the deposited data

How the results depend on the processing

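Apom and Lcat kept their direction in all 26 alternatives for 6 h against 0 h in PPA mice, as did Apom in CTL mice. Counts over all genes for 6 h against 0 h stayed within 1.5 times, and those for PPA against CTL rested on few genes. Counts of the 10 genes called in PPA mice at 6 h were 5 with equal sums, beside 2587 of the 10044 tested genes. They were 5 with the length trend removed (beside 3055 genes in all), 4 with upper quartile scaling (2886) and 4 with only the groups compared (3098). Sample weights, estimated gene by gene because the REML estimate did not converge, gave 4, beside 3911. Leaving out 1 library gave 0 to 4, beside 2007 to 3201. For PPA against CTL at 6 h the 10 gave 5 calls with sample weights, beside 2103 of all tested genes. With 1 library left out they gave 0 to 2, beside 3 to 818.

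Over all genes, PPA against CTL at 0 h gave 6 calls at a pseudocount of 0.1, 0 at 10, 1 without the filter, 9 with only the groups compared, 1 without CTL_0h_1 and CTL_6h_4, and 1 to 5 with 1 library left out. At 6 h it gave 2 at a pseudocount of 0.1, 23 at 10, 5 without the filter, 0 with only the groups compared, 5 without the mean-variance trend, 9 with robust moderation, 2103 with sample weights, 4 with short RNA rows, 24 with the length trend removed and 2 without CTL_0h_1 and CTL_6h_4. With 1 library left out it gave 3 to 818, with 818 without CTL_6h_3 and 384 without PPA_6h_5. The interaction gave 45 with sample weights, 0 to 48 with 1 library left out, and 0 at a pseudocount of 10, with equal sums, upper quartile scaling, short RNA rows, and without CTL_0h_1 and CTL_6h_4. The cause of these moves was not tested.

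With a replicate block, 1 of the 10 genes was called in PPA mice at 6 h, Apom, and Lcat was not (−0.52, adjusted p = 0.0523). The block gave 1 call over all genes for PPA against CTL at 6 h and 0 for the interaction. The titles give only a shared number, so no paired result is drawn from the block. Under the block Apoc1 changed sign to 0.02 in CTL mice and to −0.13 for the interaction, and Apob to −0.05 for PPA against CTL at 0 h.

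Changes of sign were found only for values that were not called. With equal sums, which move the median of all genes by −0.13 for 6 h in CTL mice and by 0.14 for PPA at 6 h, Apoc3 gave −0.04 for 6 h in CTL mice, Apoa1 0.06 and Mttp 0.04 for PPA at 0 h, and Apom 0.08 for PPA at 6 h. With sample weights, Apoa2 gave 0.04, Apoc1 0.21 and Lcat 0.12 for 6 h in CTL mice, Apob −0.03 and Apoc3 0.00 for PPA at 0 h, Apob −0.02 for PPA at 6 h, and Apoc1 −0.27 for the interaction. With the length trend removed, Lcat gave 0.02 for 6 h in CTL mice, Apoa1 0.07, Apob −0.01 and Apoc3 0.07 for PPA at 0 h, and Apoc1 −0.05 for the interaction. Without CTL_0h_1 and CTL_6h_4, Apoa1 gave 0.03, Apob −0.11 and Apoc3 0.12 for PPA at 0 h, Apob −0.04 for PPA at 6 h, and Apoc1 −0.01 for the interaction.

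With 1 library left out, 6 h against 0 h in CTL mice ranged from −0.37 to 0.06 for Apoa2, −0.28 to 0.25 for Apoc1, −0.08 to 0.33 for Apoc3 and −0.14 to 0.16 for Lcat, and in PPA mice from −0.20 to 0.13 for Apoa1 and −1.07 to 0.50 for Apoa4. PPA against CTL at 0 h ranged from −0.12 to 0.03 for Apoa1, −0.71 to 0.24 for Apoa4, −0.11 to 0.12 for Apob, −0.19 to 0.12 for Apoc3 and −0.13 to 0.01 for Mttp. At 6 h it ranged from −0.04 to 0.15 for Apob and −0.19 to 0.03 for Apom, and the interaction from −1.56 to 0.00 for Apoa4, −0.07 to 0.16 for Apob and −0.28 to 0.25 for Apoc1. Depth limits the 0 h libraries most, and read counts were not used.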
